A study of Rattus norvegicus with 9 samples.

Results

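Tubulins are the building blocks of microtubules, and 10 genes of this system were examined in the retina of diabetic and control rats: the alpha-tubulins Tuba1a and Tuba4a, the beta-tubulins Tubb2b, Tubb3 and Tubb5, the microtubule-associated proteins Map1a, Map1b, Map2 and Mapt, and Stmn1 (stathmin). Genes were taken by their symbol in the array annotation. Of the 10, 8 had a probe, out of 12978 genes with a symbol on the array, and all 8 were detected and tested. They were measured by 9 probes, because Map1b had 2. No probe carried the symbol of Tubb3 or Mapt, and the expression of these genes was not analysed here.

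Retinal RNA came from male Sprague-Dawley rats 3 months after intraperitoneal injection. The 4 diabetic rats had received streptozotocin (STZ) at 65 mg/kg in sodium citrate, and the 5 control rats the citrate vehicle alone. Streptozotocin kills the insulin-producing beta cells of the pancreas, so the diabetic group is a model of insulin deficiency. No diabetic rats given insulin were on these arrays. The retina was measured whole, with 1 array per rat.

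Alpha- and beta-tubulin pair into dimers that assemble end to end and side by side into hollow microtubules, the tracks on which motors carry cargo along axons and dendrites. Microtubule-associated proteins bind along the tubes and stabilise or space them. Stathmin does the opposite, since it holds free dimers and promotes shortening. In the retina, microtubules fill the axons of ganglion cells, which form the optic nerve, and build the axoneme of the photoreceptor cilium.

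Each gene was read by a bead-bound oligonucleotide, and the probe sequences of Tubb2b and Tubb6 are shown because these were the beta-tubulins with the highest diabetic over control ratios. Tubb6 is not one of the 10 genes but a beta-tubulin beside them. Both probes are 50 bases long with 58% G and C, and they start at bases 1455 and 1287 of their transcripts.
Tubb2b: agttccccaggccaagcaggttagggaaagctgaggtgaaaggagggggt
Tubb6: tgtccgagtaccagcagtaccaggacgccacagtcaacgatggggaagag
Coding sequences of tubulin genes are much alike, and whether a probe also bound the RNA of another tubulin was not tested.

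The 150 bases before the transcription start are shown for Tubb2b and for Tubb6 and Tubb4b, the latter the other beta-tubulin that passed the main test below. They are RefSeq promoters of rat build GRCr8, at chr17:30952936-30953085 (plus strand) for Tubb2b, chr18:63213137-63213286 (plus strand) for Tubb6 and chr3:28438456-28438605 (minus strand) for Tubb4b. Capitals mark a CCAAT box, whose name gives its letters, a GC box or a TATA box on either strand. The GC box was searched as GGGCGG. As the letters of the TATA box, TATAAA was searched.
Tubb2b: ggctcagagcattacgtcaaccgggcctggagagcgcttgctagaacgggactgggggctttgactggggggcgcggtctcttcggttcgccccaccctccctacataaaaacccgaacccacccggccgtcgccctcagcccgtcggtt
Tubb6: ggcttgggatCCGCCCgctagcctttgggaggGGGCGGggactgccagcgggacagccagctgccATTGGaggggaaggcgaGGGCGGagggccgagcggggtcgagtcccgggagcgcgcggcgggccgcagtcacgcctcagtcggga
Tubb4b: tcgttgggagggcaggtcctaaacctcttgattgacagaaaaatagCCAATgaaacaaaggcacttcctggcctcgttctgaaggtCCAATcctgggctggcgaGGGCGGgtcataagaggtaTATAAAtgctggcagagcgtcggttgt
The Tubb2b window held 0 of these motifs. The Tubb6 window held 3 GC boxes and 1 CCAAT box, and the Tubb4b window 1 GC box, 2 CCAAT boxes and 1 TATA box. Of the 10 genes, 9 had a promoter entry, among them Tubb3, which had no probe. Among these 9, 6 had a GC box, 3 a CCAAT box and 1, Map1b, a TATA box. Over 33469 rat promoters of the same length the shares were 26.0%, 23.5% and 8.0%. A match of letters is a description of the sequence only.

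The arrays were RatRef-12 BeadChips. All 4 diabetic arrays lay on BeadChip 2 together with controls 4 and 5, whereas every array on BeadChip 1 was a control (controls 1, 2 and 3). Median signals per array were 70 to 84.4 in the control group and 76.9 to 87.9 in the diabetic group, in arbitrary fluorescence units, and 10843 to 11609 probes per array were detected. Values below are normalized log2 intensities, on which a difference of 1 is a doubling. Of 10261 probes tested over the whole array, 956 passed an adjusted p of 0.05 (limma, Benjamini-Hochberg), 497 higher and 459 lower in diabetic retinas. When arrays were scaled to a common median instead of quantile normalized, the counts were 67 and 10.

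No gene of the 10 passed the adjusted p: 0 of the 8 tested were called, against 9.32% of all tested probes (4.84% higher and 4.47% lower). Their median difference was -0.06 on the log2 scale, with 2 genes higher and 6 lower, beside -0.01 over all tested probes. At an unadjusted p under 0.05, Tubb2b and Map2 passed, 2 of 8 genes against 25.3% of all probes. Both also met the thresholds of the study's methods (unadjusted p under 0.05 and a 1.2-fold difference) by limma, Tubb2b higher and Map2 lower, against 10.0% of all probes (5.58% higher and 4.45% lower). The methods' t-test called 1, Tubb2b, at those thresholds, against 9.36% of all probes, and 0 after adjustment, against 5.21%.

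**Figure D1:**
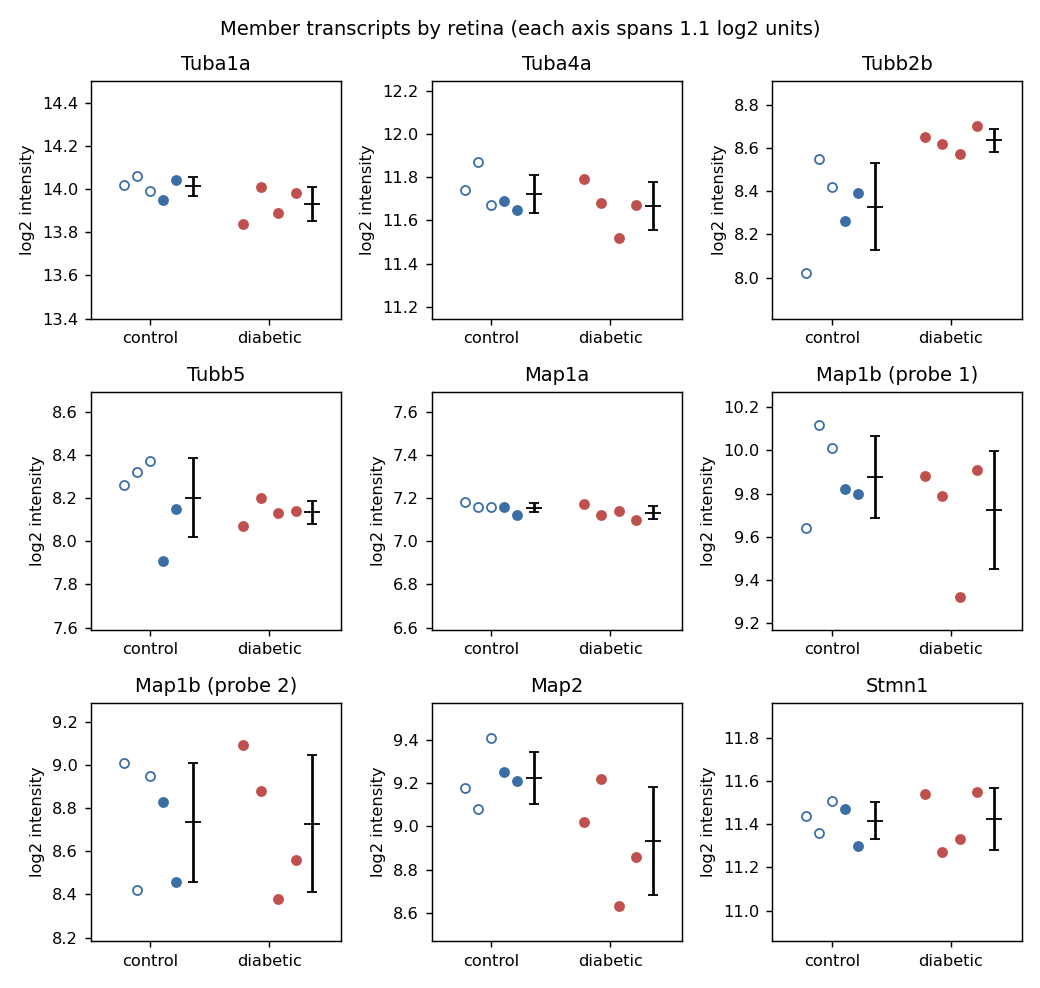
Normalized log2 intensity of the 9 probes in each retina, with control in blue and diabetic in red. Open circles are BeadChip 1 arrays, filled circles are BeadChip 2 arrays, and the black mark is the mean with its SD. Only for Tubb2b do all 4 diabetic retinas lie above all 5 controls, and every panel covers the same log2 span.

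Tubb2b was the one gene of the 8 whose groups did not overlap. It encodes a beta-tubulin of neurons that is prominent in migrating neurons of the developing brain. Average signals were 337, 399, 406, 474 and 452 in controls 1 to 5, and 636, 487, 556 and 529 in diabetic retinas 1 to 4. After normalization the log2 values were 8.02, 8.55, 8.42, 8.26 and 8.39 in the controls and 8.65, 8.62, 8.57 and 8.70 in the diabetic retinas. All 4 diabetic values were above the highest control, control 2, by a small margin, while control 1 was well below the rest. Probes on which all diabetic retinas were higher made up 6.60% of those tested, and probes on which all were lower, with 0 of the 8 genes among them, 6.41%. The mean was 8.33 ± 0.2 (SD, n = 5) in controls and 8.64 ± 0.05 (SD, n = 4) in diabetic retinas, a 1.24-fold difference of 0.31 (SE 0.1, 95% interval 0.09 to 0.52) with a limma adjusted p of 0.0823. On BeadChip 2 alone the difference was again 0.31, with a limma adjusted p of 0.1. Without control 2 the limma adjusted p was 0.0486, and without any other 1 array it was 0.0705 to 0.165. It was 0.282 with BeadChip as a block and 0.533 with median scaling.

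Tubb5, a beta-tubulin made in most tissues, had log2 values of 8.26, 8.32, 8.37, 7.91 and 8.15 in the controls and 8.07, 8.20, 8.13 and 8.14 in the diabetic retinas. The 3 controls of BeadChip 1 lay above every diabetic retina, while control 4 lay below all of them. The difference was -0.07 (SE 0.09, 95% interval -0.27 to 0.14; limma adjusted p 0.704). Within BeadChip 2 it was 0.11, the opposite direction.

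Tuba1a, the chief alpha-tubulin of young neurons, had average signals of 14442 to 17018 in control and 15968 to 17257 in diabetic retinas. Its log2 values were 14.02, 14.06, 13.99, 13.95 and 14.04 in the controls and 13.84, 14.01, 13.89 and 13.98 in the diabetic retinas. Diabetic retinas 1 and 3 lay below every control and the other two lay among them. The difference was -0.08 (SE 0.04, 95% interval -0.18 to 0.01) with a limma adjusted p of 0.25.

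Tuba4a is an alpha-tubulin whose gene, unlike those of most alpha-tubulins, does not encode the C-terminal tyrosine. Its log2 values were 11.74, 11.87, 11.67, 11.69 and 11.65 in the controls and 11.79, 11.68, 11.52 and 11.67 in the diabetic retinas. The groups overlapped, with diabetic retina 3 lowest and control 2 highest. The difference was -0.06 (SE 0.06, 95% interval -0.20 to 0.09; limma adjusted p 0.629).

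Of the measured genes Map1a, Map1b and Map2, Map2 differed most. MAP2 is the classical dendritic member of this class and bundles microtubules in dendrites and cell bodies. Average signals were 691, 534, 715, 864 and 741 in controls 1 to 5 and 773, 677, 574 and 582 in diabetic retinas 1 to 4. Log2 values were 9.18, 9.08, 9.41, 9.25 and 9.21 in the controls and 9.02, 9.22, 8.63 and 8.86 in the diabetic retinas. Diabetic retinas 1, 3 and 4 lay below every control, but diabetic retina 2 lay among the controls. The mean was 9.23 ± 0.12 (SD, n = 5) in controls and 8.93 ± 0.25 (SD, n = 4) in diabetic retinas, a 1.23-fold difference of -0.29 (SE 0.11, 95% interval -0.55 to -0.03) with a limma adjusted p of 0.148. Without diabetic retina 2 it was -0.39 with a limma adjusted p of 0.0496, and without diabetic retina 3 it was -0.19 with a limma adjusted p of 0.297.

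Map1b encodes a protein of growing axons and its 2 probes gave different patterns across retinas. The first gave log2 values of 9.64, 10.12, 10.01, 9.82 and 9.80 in the controls and 9.88, 9.79, 9.32 and 9.91 in the diabetic retinas. The second gave 9.01, 8.42, 8.95, 8.83 and 8.46 in the controls and 9.09, 8.88, 8.38 and 8.56 in the diabetic retinas. Control 2 was the highest control on the first probe and the lowest on the second, and diabetic retina 3 was the lowest diabetic retina on both. The differences were -0.15 (SE 0.14, 95% interval -0.47 to 0.16; limma adjusted p 0.552) and -0.01 (SE 0.18, 95% interval -0.42 to 0.40; limma adjusted p 0.987). These intervals are wide, and differences of the size seen for Tubb2b or Map2 lie inside at least one of them.

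Map1a, which binds microtubules of mature neurons, was faint. Its average signal was 90.5 to 116 in control and 84.7 to 130 in diabetic retinas, near the array medians. Log2 values were 7.18, 7.16, 7.16, 7.16 and 7.12 in the controls and 7.17, 7.12, 7.14 and 7.10 in the diabetic retinas, which overlapped. The difference was -0.02 (95% interval -0.08 to 0.03; limma adjusted p 0.599). This scale has a floor at 6.94 that compresses faint probes, and with a background estimate that resists bright outliers, for which the floor was 4.27, the difference was -0.19 with a limma adjusted p of 0.38.

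Stmn1 had average signals of 2181 to 3520 in control and 2478 to 3506 in diabetic retinas. Its log2 values were 11.44, 11.36, 11.51, 11.47 and 11.30 in the controls and 11.54, 11.27, 11.33 and 11.55 in the diabetic retinas. Diabetic retinas 1 and 4 were above every control and diabetic retina 2 was below all of them. The difference was 0.01 (SE 0.07, 95% interval -0.16 to 0.17; limma adjusted p 0.976).

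The genes also differed in how much they varied between the arrays of a group. The SD in controls includes any difference between the BeadChips as well as that between rats, whereas the diabetic retinas shared a BeadChip. The median SD of the 9 probes was 0.12 in controls and 0.11 in diabetic retinas, beside 0.07 and 0.09 over all tested probes. The floor of this scale compresses the spread of faint probes, such as Map1a with an SD of 0.02 in controls and 0.03 in diabetic retinas. The part of probe brightness in this contrast was not tested. Tuba1a had an SD of 0.05 in controls and 0.08 in diabetic retinas. The second Map1b probe was the most variable of the 9, with an SD of 0.28 in controls and 0.32 in diabetic retinas.

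**Figure D2:**
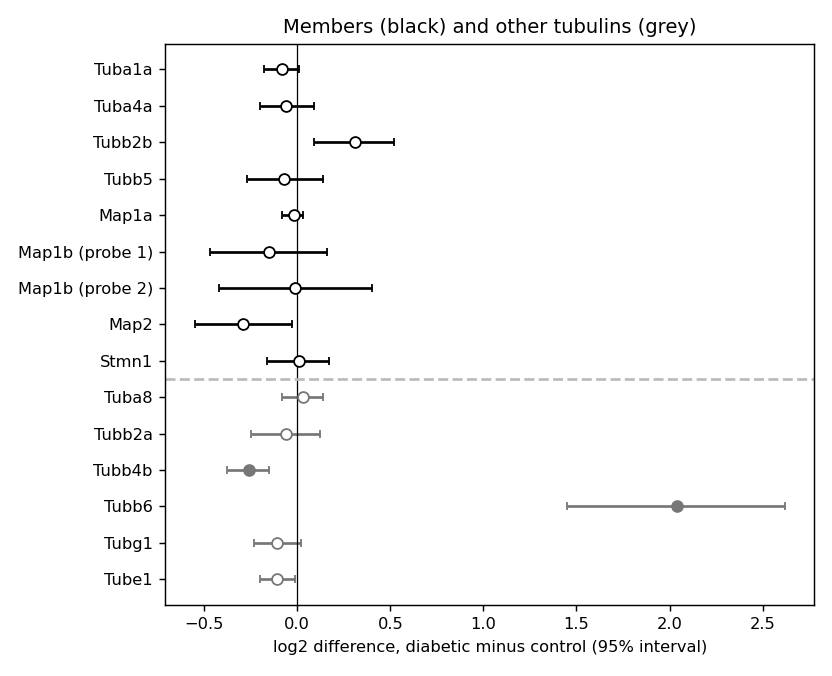
Diabetic minus control difference in log2 intensity with its 95% interval for the 9 probes (black) and the 6 other tubulins tested (grey). Filled circles passed the limma adjusted p. Tubb6 at 2.04 and Tubb4b at -0.26 are the filled ones, and the intervals of Tubb2b, Map2 and Tube1 also leave out 0.

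Other members of the tubulin family served as a comparison. Of 15 further tubulin genes 10 had a probe and 6 were tested, with a median of -0.09. Of the 6, 1 rose and 1 fell, or 33.3% beside 9.32% of all tested probes. Tubb6, a beta-tubulin of low level in most adult tissues, gave average signals of 242, 273, 222, 249 and 223 in controls 1 to 5 and 1568, 701, 1497 and 673 in diabetic retinas 1 to 4. Log2 values were 7.65, 8.0, 7.64, 7.55 and 7.55 in the controls and 10.24, 9.27, 10.24 and 9.11 in the diabetic retinas. The groups were far apart, and diabetic retinas 1 and 3 were about a log2 unit above diabetic retinas 2 and 4. Tubb6 rose by 2.04 (SE 0.26, 95% interval 1.45 to 2.62; limma adjusted p 0.00408), or 4.11-fold. On BeadChip 2 alone the difference was 2.17 and the limma adjusted p 0.102.

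Levels of lens fibre genes moved with Tubb6. Beside the 4.84% of all tested probes that rose, 9 of the 12 lens fibre markers with a probe rose in diabetic retinas. These 12, all tested, had a median difference of 3.04. Their mean log2 value was 9.74, 10.63, 9.87, 10.05 and 9.57 in controls 1 to 5 and 13.12, 12.47, 12.91 and 12.27 in diabetic retinas 1 to 4. Summed signals were 41031 to 49242 in controls and 153918, 105742, 145875 and 99345 in diabetic retinas 1 to 4. As with Tubb6, diabetic retinas 1 and 3 were the highest and control 2 was the highest control by the mean log2 value. The part of these genes in the Tubb6 difference was not tested.

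**Figure D3:**
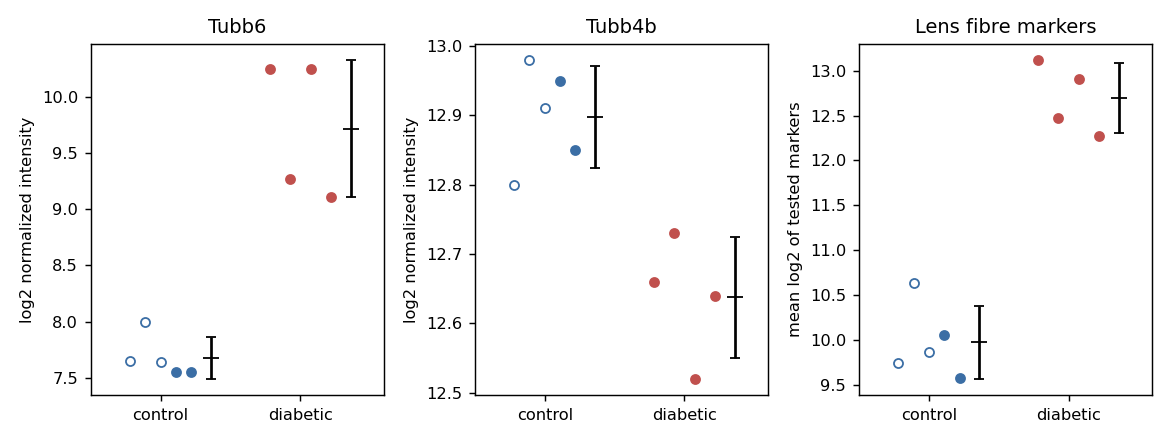
Normalized log2 intensity of Tubb6 and Tubb4b and the mean log2 intensity of the lens fibre markers in each retina. Open circles are BeadChip 1 arrays, filled circles BeadChip 2 arrays, and black marks are mean and SD. Diabetic retinas 1 and 3 are the highest for Tubb6 and for the lens markers, while Tubb4b is lower in all 4 diabetic retinas.

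Tubb4b, a beta-tubulin of many tissues and of cilia, was bright, at 6708 to 9031 in control and 6336 to 7377 in diabetic retinas. Log2 values were 12.80, 12.98, 12.91, 12.95 and 12.85 in the controls and 12.66, 12.73, 12.52 and 12.64 in the diabetic retinas. Every diabetic retina was below every control. Tubb4b fell by 0.26 (SE 0.05; limma adjusted p 0.0172). The difference was -0.26 also with BeadChip as a block, where the limma adjusted p was 0.111, and it was -0.23 with median scaling, with a limma adjusted p of 0.441.

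The remaining tubulins did not pass the test. The difference was -0.06 for Tubb2a (limma adjusted p 0.682), the beta-tubulin most like Tubb2b, and 0.03 for the alpha-tubulin Tuba8 (limma adjusted p 0.751). It was -0.11 for Tubg1 (limma adjusted p 0.259), the gamma-tubulin that nucleates microtubules, and -0.11 for Tube1 (limma adjusted p 0.162), the epsilon-tubulin of centrioles. Tuba8 and Tube1 were faint, and with the outlier-resistant background estimate their differences were 0.20 (limma adjusted p 0.633) and -0.44 (limma adjusted p 0.114). Tuba3a and Tuba3b were detected on 0 arrays, and Tubal3 and Tubd1 on too few to be tested.

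Markers of retinal cell types were read beside these values. Over all tested probes, 4.84% rose and 4.47% fell at the limma adjusted p. Ganglion cell markers had 10 tested probes, of which 5 fell and 0 rose, a median difference of -0.23, and a mean log2 value of 9.39 to 9.48 in control and 9.17 to 9.32 in diabetic retinas. Markers of amacrine, bipolar and horizontal cells had 8 tested probes, of which 0 passed, a median difference of -0.21, and a mean log2 value of 10.03 to 10.11 in control and 9.88 to 10.0 in diabetic retinas, while Grm6 was undetected on every array. For both lists all diabetic retinas were below all controls by the mean log2 value, but summed signals before normalization overlapped. For ganglion cell markers these were 13530 to 19849 in control and 12533 to 14807 in diabetic retinas. For amacrine, bipolar and horizontal cell markers they were 14140 to 19751 in control and 14568 to 17528 in diabetic retinas. In whole retina, fewer cells of a type, less RNA per cell and an effect of the normalization cannot be told apart. Müller glia markers had 4 tested probes, of which 1 rose, a median difference of 0.16, and a mean log2 value of 10.69 to 10.77 in control and 10.88 to 10.92 in diabetic retinas, while Kcnj10 was undetected on every array. Their summed signals before normalization were 12729 to 17445 in control and 20959 to 25998 in diabetic retinas. Rod markers, the defining genes of this tissue, had 8 tested probes of which 1 fell, a median difference of -0.16, and a mean log2 value of 12.41 to 12.5 in control and 12.13 to 12.32 in diabetic retinas, again without overlap. Their summed signals before normalization overlapped, at 70338 to 83480 in control and 70613 to 84603 in diabetic retinas. The part of these cell types in the differences of Tubb2b, Map2 and the neuronal genes below was not tested.

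Among 6 tested stathmins and severing enzymes 1 fell and 1 rose, or 33.3% beside 9.32% of all tested probes. The median of this list was -0.02. Stmn3, a neuronal relative of stathmin, had log2 values of 12.70, 12.73, 12.70, 12.71 and 12.68 in the controls and 12.41, 12.41, 12.22 and 12.53 in the diabetic retinas. All diabetic retinas were below all controls, which were nearly level. Stmn3 fell by 0.31 (limma adjusted p 0.0125), where the related Stmn1 differed by 0.01, and with BeadChip as a block the limma adjusted p of Stmn3 was 0.0934. Stmn3 passed whichever 1 array was left out (limma adjusted p up to 0.0366). Spast, encoding the severing enzyme spastin, rose by 0.21 (limma adjusted p 0.0149). Stmn2, another neuronal stathmin, was at -0.22 (limma adjusted p 0.132) and Katnal1, of the katanin family, at 0.16 (limma adjusted p 0.34). With the outlier-resistant background estimate Katnal1 was at 0.27 (limma adjusted p 0.371). Without diabetic retina 4, Katnal1 passed at 0.27 (limma adjusted p 0.0368).

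Among the other microtubule-associated proteins, 15 differences were negative and 4 positive. Over all tested probes 5926 were negative and 4335 positive. Of the 19 genes tested, 1 rose and 1 fell, or 10.5% beside 9.32% of all tested probes, and the median was -0.05. Map1s, the short relative of Map1a and Map1b, rose by 0.53 (limma adjusted p 0.0158), with log2 values of 9.51 to 9.93 in control and 10.07 to 10.34 in diabetic retinas that did not overlap. Macf1, which links microtubules to actin, fell by 0.19 (limma adjusted p 0.046), a call that was lost without any 1 of controls 2 to 5 or of diabetic retinas 1, 3 and 4 (limma adjusted p up to 0.102). Eml2 was at 0.23 (limma adjusted p 0.054), and Camsap1, which binds minus ends, at -0.24 (limma adjusted p 0.128). Eml2 passed without control 5 (limma adjusted p 0.0187) and, at 0.60, with the outlier-resistant background estimate (limma adjusted p 0.0393). Camsap1 passed without diabetic retina 1 (limma adjusted p 0.0234).

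**Figure D4:**
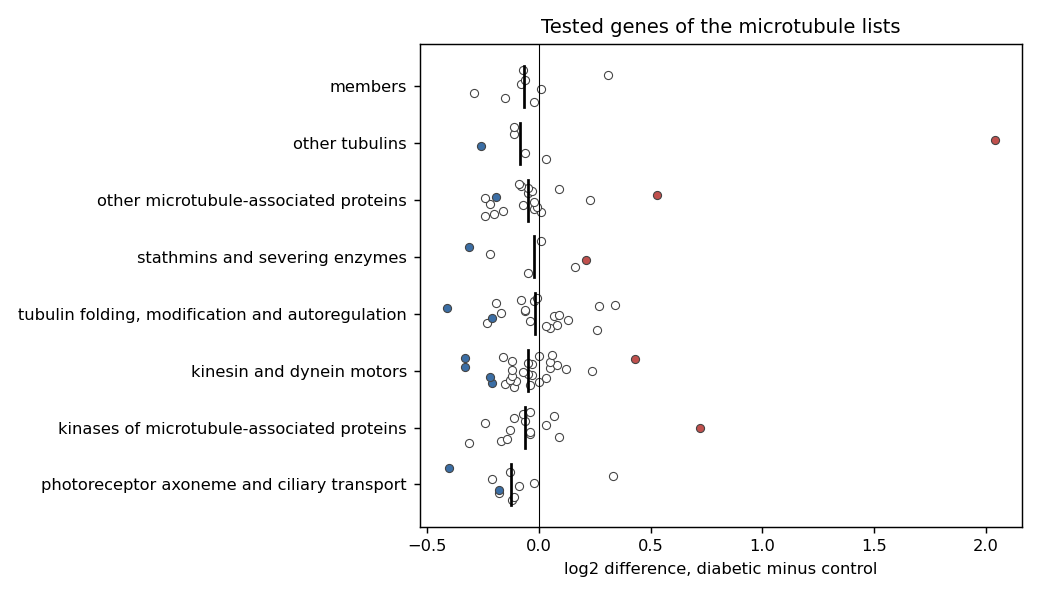
Diabetic minus control difference in log2 intensity for each tested gene of the microtubule lists, 1 circle per gene. Red genes rose and blue genes fell at the limma adjusted p, white genes did not pass, and the black bar is the median of the list. The medians lie between -0.12 and -0.01, and Tubb6 at 2.04 stands farthest to the right.

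Motor proteins had 28 tested genes, with a median of -0.05. Of these 1 rose and 4 fell, or 17.9% beside 9.32% of all tested probes. Klc1, a light chain that couples kinesin to cargo, rose by 0.43 (limma adjusted p 0.00846), while Klc4, another light chain, fell by 0.33 (limma adjusted p 0.0321). The dynein light intermediate chain Dync1li1 fell by 0.22 (limma adjusted p 0.0185) and the dynactin subunit Dctn4 by 0.21 (limma adjusted p 0.0251). With the outlier-resistant background estimate Dync1li1 was at -0.37 (limma adjusted p 0.0229). Kif3b, a kinesin-2 motor subunit named here after its value was seen, fell by 0.33 (limma adjusted p 0.0402). Klc1 passed whichever 1 array was left out. The call of Klc4 was lost without any 1 array but diabetic retina 2, that of Kif3b without any but diabetic retina 3, that of Dctn4 without control 3 or diabetic retina 1 or 3, and that of Dync1li1 without control 4, with limma adjusted p-values up to 0.0796, 0.0825, 0.0553 and 0.0515.

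Genes that fold or modify tubulin had 20 tested genes, with a median of -0.01. Among them 0 rose and 2 fell, or 10% beside 9.32% of all tested probes. The 2 were Cct6a, a subunit of the chaperonin that folds tubulin, at -0.21 (limma adjusted p 0.0413), and Sirt2, a deacetylase that acts on alpha-tubulin, at -0.41 (limma adjusted p 0.0438). Cct3, of the same chaperonin, was at -0.23 (limma adjusted p 0.0527) and the folding cofactor Tbcb at 0.34 (limma adjusted p 0.0533). The call of Cct6a was lost without any 1 array but diabetic retina 3, and that of Sirt2 without any but control 2 or diabetic retina 1, with limma adjusted p-values up to 0.0841 and 0.0987. Without diabetic retina 2, Cct3 and Tbcb passed (limma adjusted p 0.00996 and 0.0282).

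The 15 tested kinases, phosphatase subunits and scaffolds that act on microtubule-associated proteins had a median of -0.06. Beside the 9.32% of all tested probes called, 1 of the 15 (6.67%) passed and rose. This was Mapk8ip1, a scaffold of the JNK pathway that also binds kinesin, whose log2 values were 10.21 to 10.48 in control and 10.75 to 11.53 in diabetic retinas, and which rose by 0.72 (limma adjusted p 0.0189). Its kinase Mapk8 was at -0.13 (limma adjusted p 0.123), Camk2b at -0.31 (limma adjusted p 0.0705) and Mark2, which phosphorylates tau and MAP2, at -0.24 (limma adjusted p 0.102). Mapk8ip1 was lost without control 4 (limma adjusted p 0.0526), Camk2b passed without diabetic retina 4 (limma adjusted p 0.0211) and Mark2 without diabetic retina 2 (limma adjusted p 0.0396). The faint Mapk8 was at -0.41 with the outlier-resistant background estimate (limma adjusted p 0.0779).

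Genes of the photoreceptor axoneme and ciliary transport had 10 tested genes and a median of -0.12. In this list 0 rose and 2 fell, or 20% beside 9.32% of all tested probes. Bbs5, a subunit of the BBSome that carries membrane proteins of cilia, fell by 0.18 (limma adjusted p 0.0354), and Tulp1, a photoreceptor protein needed for transport to the outer segment, fell by 0.40 (limma adjusted p 0.0375). Rod markers were lower in the same retinas, with a median difference of -0.16 and mean log2 values of 12.41 to 12.5 in control and 12.13 to 12.32 in diabetic retinas, and their part in these differences was not tested. The transport proteins Ift57 and Ift27 were at 0.33 (limma adjusted p 0.0574) and -0.21 (limma adjusted p 0.0842). Bbs5 passed without control 1 or diabetic retina 4 and was lost without any other 1 array, and Tulp1 passed without diabetic retina 1, 2 or 3 and was lost without any other, with limma adjusted p-values up to 0.0818 and 0.0841. Ift57 passed without control 2 (limma adjusted p 0.03). With BeadChip as a block, none of the genes called outside the tubulins kept its limma adjusted p under 0.05.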

How the data were processed

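Retinal RNA of 5 control and 4 diabetic rats had been hybridised to RatRef-12 BeadChips, with 1 array per rat, and the authors removed 1 diabetic array in quality control. The authors deposited average bead intensity on a linear scale for 22226 probes, not normalized between arrays, together with a detection p-value for each probe and array, written with GenomeStudio 1.0.6. A second deposited table of the authors' processed intensity values served as an alternative.

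The software was limma 3.58.1 under R 4.3.3, with Python 3.11.15 for tables and matplotlib 3.10.9 for figures. Intensities were background corrected (normexp, negative controls inferred from the detection p, offset 16), quantile normalized and put on a log2 scale. The test was limited to the 10261 probes with a detection p below 0.05 on every array of either group. Groups were compared per probe with lmFit and eBayes, two-sided, with Benjamini-Hochberg adjustment over all tested probes and a threshold of 0.05. The fit was tested on simulated data. The number of arrays limits the precision. The p-values rest on the spread between the arrays of these rats, which in the main fit includes any difference between the BeadChips. All diabetic arrays shared a BeadChip, whereas some of the controls lay on the other. Any difference between the BeadChips therefore also enters the diabetic minus control difference of the main fit.

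Symbols came from the array's annotation, in which 13192 probes had 1 symbol, 0 several and 9034 none. The brightest detected probe stood for a gene in counts, and each probe of the 10 genes was described. Named are the 10 genes, the other tubulins, and the 4 genes of each further list with the smallest p. The genes and lists were chosen with earlier results of these data known. Promoters were taken from RefSeq (GRCr8) and probe sequences from the study's supplementary probe table, Tubb2b by its Entrez identifier. Alternatives were other normalizations, background corrections and detection filters, BeadChip or replicate number as a block, BeadChip 2 alone, the methods' t-test and thresholds, the mean over a gene's probes, normexp with a background spread that resists bright outliers (chosen after seeing the data), and leaving out each array. Authors' columns of fold changes were not used.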

Additional observations from a re-analysis of the deposited data

Results flagged for a closer look

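Single retinas stood apart from the rest of their group for 3 genes, out of 80 groups of values examined, and chance alone marks about 1 in 20 groups. For Tubb6, control 2 was at 8.0 on the log2 scale, above the other controls at 7.55 to 7.65. For the alpha-tubulin Tuba8, diabetic retina 1 was at 7.16, below the others at 7.27 to 7.28. For the kinesin light chain Klc1, control 3 was at 9.36, below the other controls at 9.58 to 9.64. Klc1 rose by 0.38 without control 3 and by 0.43 with it.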

How the results depend on the processing

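Of 188 values of the 8 genes under alternative settings, 170 kept their direction and their side of the threshold, 2 passed the threshold and 16 changed sign. The 2 were Tubb2b without control 2 and Map2 without diabetic retina 2, so that leaving out 1 array gave 0 to 1 called genes. At the methods' thresholds 2 genes were called by limma and 1 by the methods' t-test. Tubb5 was at 0.0 with median scaling and at 0.11 with BeadChip as a block and within BeadChip 2. The second Map1b probe was at 0.03 with median scaling, at 0.08 with BeadChip as a block and within BeadChip 2, and at -0.13 to 0.11 as each array was left out. Stmn1 was at -0.04 to 0.06 and Tubb2a at -0.11 to 0.02 as each array was left out, and Tubb2a at 0.02 with median scaling. The cause was not tested. Of 651 values of the other named genes, 484 kept their direction and call, 148 lost the call, 17 gained it and 2 changed sign.

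Over all probes, the count called was 77 with median scaling, 575 without a detection filter, 179 with BeadChip as a block, 11 within BeadChip 2, 535 by the methods' t-test, and 472 to 1008 as each array was left out. Of those called, 52% were higher in diabetic retinas, and 87% with median scaling, 70.4% with BeadChip as a block and 72.7% within BeadChip 2. Correlations of same-numbered deviations were -0.0819, 0.16, -0.0659 and 0.145, and 3 of 8 arrays correlated best with their own number. Too few arrays share a number to decide from these values whether replicate numbers pair the rats. The fit with a replicate block left out control 5, which has no diabetic array of the same number. With this block 246 probes were called, Stmn1 was at -0.02, and of the named genes Tubb6 alone passed. Leaving out control 5 without a block gave 613 called probes.

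For the other tubulins, 1 gene was called with median scaling, BeadChip as a block, a replicate block, the outlier-resistant background estimate and at the methods' thresholds, and 0 within BeadChip 2. That estimate was chosen after seeing the data. With median scaling, BeadChip as a block, within BeadChip 2 and with a replicate block, 0 genes were called in each other list. Other microtubule-associated proteins had 1 called gene without a detection filter, by the methods' t-test and at the methods' thresholds, and 1 to 2 as arrays were left out. Stathmins and severing enzymes had 1 with the authors' processed values, without background correction, with the outlier-resistant estimate and at the methods' thresholds. Folding and modification genes had 4 at detection p under 0.01, 1 with the outlier-resistant estimate, 0 without a detection filter and by the methods' t-test, and 0 to 2 as arrays were left out. Motors had 3 without a detection filter, by the methods' t-test and at the methods' thresholds, and 2 to 4 as arrays were left out. Kinases had 2 at the methods' thresholds and 0 to 2 as arrays were left out. Ciliary genes had 1 with the authors' processed values and the outlier-resistant estimate, 0 without a detection filter and by the methods' t-test, and 0 to 1 as arrays were left out. The floor of the main scale compressed faint probes. The differences of Map1a, Tuba8, Tube1, Eml2, Katnal1, Dync1li1 and Mapk8 were over 1.5 times larger with the outlier-resistant estimate. The background spread inferred per array was 141 to 215 signal units in the main setting and 8.6 to 11 with that estimate.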
